A study of Homo sapiens with 6 samples.

Results

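YAP1, WWTR1 (the gene of the protein TAZ), the DNA-binding partners TEAD1 and TEAD4, and 6 genes known as targets or partners of these factors (CCN1, CCN2, ANKRD1, AMOTL2, LATS2 and AJUBA) were examined in human PC3 cells carrying a short hairpin RNA (shRNA) against TTC3. The 10 genes were taken by symbol from the 62700 genes of the deposited count table. All 10 passed the filter on low counts, as did 24325 genes in all.

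YAP and TAZ are transcriptional coactivators that do not bind DNA themselves. They reach promoters and enhancers through TEAD factors, and the kinases of the Hippo pathway, which end in LATS1 and LATS2, phosphorylate YAP and TAZ and hold them in the cytoplasm. CCN1, CCN2 and ANKRD1 are widely used as readouts of this activity in epithelial and cancer cells, while AMOTL2, LATS2 and AJUBA act back on the pathway.

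PC3 is an established line from a bone metastasis of a prostate carcinoma. One group of 3 libraries came from cells with a control shRNA, whose genotype label is WT, and the other group of 3 came from cells with an shRNA to TTC3, labelled as a knockdown. TTC3 encodes an E3 ubiquitin ligase. Both groups were grown in the same serum-containing F-12K medium. The number of hairpins, the vector and the time after its delivery are not stated in the labels. Whether each library is a culture of its own is not labelled. The p-values therefore describe variation among these 6 libraries alone, and that variation may be technical.

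Libraries held 143246356 to 155526861 counts. Levels are given as counts scaled to library size by TMM factors (CPM). A value after ± is the SD over 3 libraries for a level and the SE for a log2 fold change, which is TTC3 shRNA relative to control shRNA. TTC3 (ENSG00000182670.14) was at 695, 684 and 680.3 CPM with the control shRNA and at 228, 183 and 178 CPM with the TTC3 shRNA, a mean of 28.6% of control (log2 fold change -1.81 ± 0.10 SE, adjusted p = 5.65e-05, edgeR quasi-likelihood test). TTC3 shRNA replicate 1 stood apart from replicates 2 and 3. Its counts differed from theirs by a median of 27.8 and 35.5 times sampling noise (chi-square per gene), and other pairs of replicates by 3.85 to 7.42 times. The epithelial keratins KRT8 and KRT18 were at 139 to 279 CPM in every library, and the summed level of 4 epithelial markers was 324 to 341 CPM in control and 322 to 470.4 CPM in TTC3 shRNA libraries. Of these, KRT18 and EPCAM rose and CDH1, at 2.04 CPM or less, fell. The luminal prostate genes KLK2 and KLK3 had 0 counts in all 6 libraries, which allows up to 3 counts in each, while TMPRSS2 was at 37.4 to 38.1 CPM in control and fell to 18.02 to 18.5 CPM in TTC3 shRNA libraries. Of the 7 markers of other cell types, PTPRC, VWF, COL1A2 and DCN were at 0.212 CPM or less in every library, while the summed level of the 7 was 36.2 to 40.7 CPM in control and 79.1 to 124 CPM in TTC3 shRNA libraries, most of it COL1A1 and CD68. Their part in the results below was not tested.

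Of the 10 genes, 4 fell after TTC3 shRNA (CCN1, CCN2, ANKRD1, AMOTL2), 2 rose (YAP1, WWTR1) and 4 did not pass the test (TEAD1, TEAD4, LATS2, AJUBA). The threshold was a Benjamini-Hochberg adjusted p below 0.05 over all tested genes. Over all tested genes 33.6% passed, 15.7% higher and 17.8% lower. The 2 genes that rose were thus close to the background share, and the 4 that fell were 40% of the 10. The 10 genes were chosen with earlier results of these data known, so these shares are a description alone. CCN1 and ANKRD1 were called and at least 2-fold lower, as were 8.55% of all tested genes. In 3 of the 10 genes every TTC3 shRNA library lay above every control library, and in 5 every one lay below. Groups did not overlap in 50.3% of all tested genes, 23.3% higher and 27% lower. The median log2 fold change of the 10 genes was -0.16, beside -0.018 over all tested genes. Without TTC3 shRNA replicate 1, 4 of the 10 genes were called higher and 6 lower, and without any one of the control libraries 1 was called higher and 4 lower. Calls over all genes moved as well. Without TTC3 shRNA replicate 1, 6674 of 25416 tested genes were called higher and 7065 lower. Without a control library, 4546 to 4633 of 25037 to 25176 tested genes were called in either direction.

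**Figure D1:**
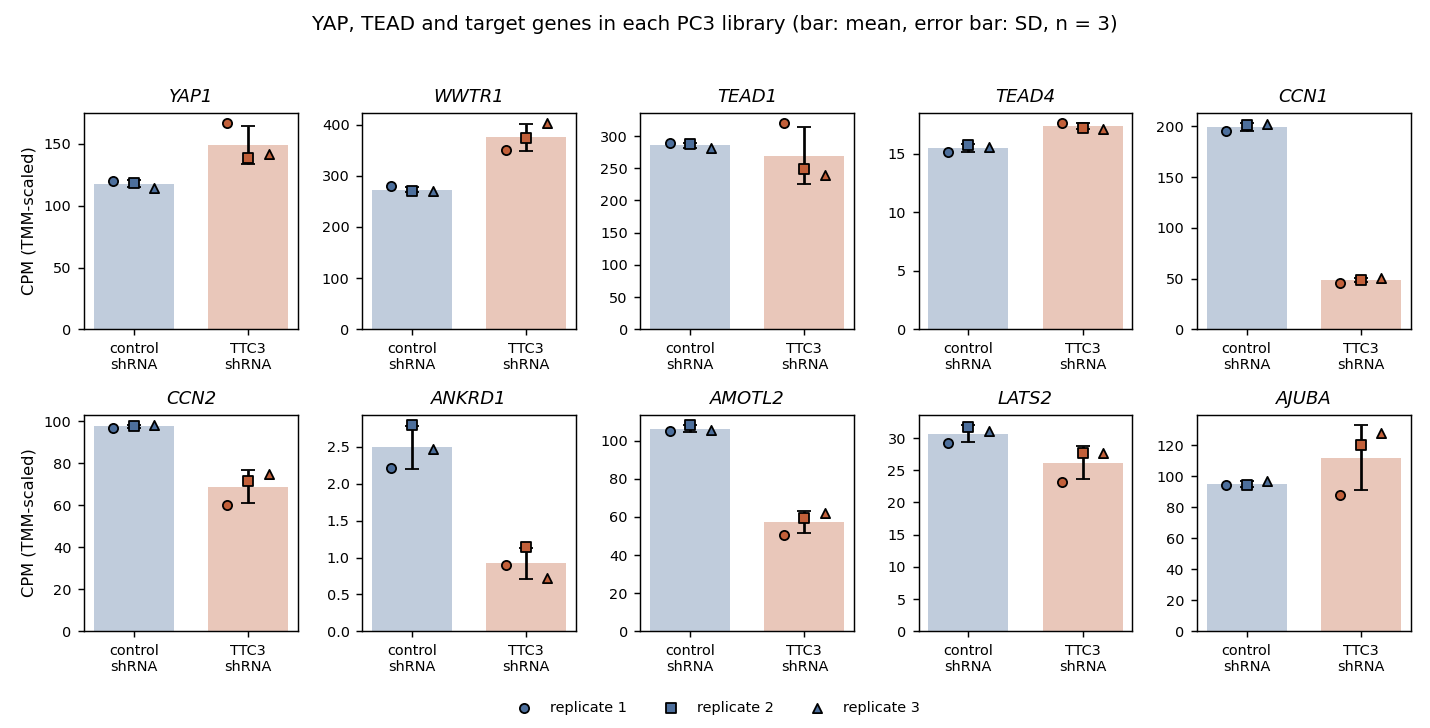
CPM of the 10 genes in each library (bars, group means; error bars, SD, n = 3; symbols, replicates 1 to 3; each panel has its own axis from 0). CCN1, ANKRD1, AMOTL2 and CCN2 show separated groups with lower TTC3 shRNA values, WWTR1 and YAP1 separated groups with higher values, and TEAD1 and AJUBA overlapping groups.

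Levels were first compared per length, as CPM per kilobase of transcript. In control cells the order was WWTR1 at 129, TEAD1 at 108, CCN1 at 87.0, CCN2 at 41.8, AMOTL2 at 27.1, YAP1 at 26.1, AJUBA at 22.4, TEAD4 at 9.27, LATS2 at 5.57 and ANKRD1 at 1.26. The coactivator transcripts thus differed in level, with WWTR1 above 97.8% and YAP1 above 82.9% of tested protein-coding genes with a known transcript length. AMOTL2 (± 0.417 SD) and YAP1 (± 0.627 SD) were the closest neighbours in this order. After TTC3 shRNA CCN1 stood at 21.2 CPM per kilobase, below YAP1 at 33.0 ± 3.43, CCN2 at 29.5 ± 3.33 and AJUBA at 26.4 ± 4.94. Differences between these genes were not tested. WWTR1 at 177 and TEAD1 at 102 were still the highest, and LATS2 at 4.75 and ANKRD1 at 0.467 the lowest.

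The coactivators are the signal-carrying part of the pathway. WWTR1 (ENSG00000018408.15, chr3:149517235-149736714, minus strand, hg38) was at 279, 270.4 and 269.9 CPM with the control shRNA and at 350.3, 373 and 403 CPM with the TTC3 shRNA. All 3 TTC3 shRNA values lay above all 3 control values. WWTR1 rose by 0.46 ± 0.07 on the log2 scale (adjusted p = 0.00344), which is 137% of the control mean. YAP1 (ENSG00000137693.14, chr11:102110461-102233423, plus strand) was at 119.99, 118 and 114 CPM in control libraries and at 167, 138 and 142 CPM with the TTC3 shRNA. These groups did not overlap either, and replicate 1 of the TTC3 shRNA group was the highest. YAP1 rose by 0.34 ± 0.08 on the log2 scale (adjusted p = 0.0199), or to 127% of control. The YAP1 call was lost without control replicate 1, 2 or 3 (adjusted p = 0.0713, 0.0782 and 0.0879) and with libraries scaled by their totals alone (log2 fold change 0.22, adjusted p = 0.154).

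The ratio of WWTR1 to YAP1 within a library does not depend on library scaling. It was 2.33, 2.29 and 2.36 with the control shRNA and 2.10, 2.70 and 2.84 with the TTC3 shRNA, as a ratio of counts. TTC3 shRNA replicate 1 lay below all control values and replicates 2 and 3 above them. The mean log2 ratio differed by 0.12 (exact two-sided permutation test, p = 0.4, n = 3 a group). The smallest p that 3 against 3 libraries can give is 0.1. In all, 3 ratios were tested, and the p adjusted over the 3 was 0.4 for this one.

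Of the 28 listed transcripts of the 10 genes, 27 were tested, 1 rose and 2 fell. The estimates placed nearly all of WWTR1 on ENST00000360632.8, with 98.1% to 99.9% of the gene's counts. This transcript rose by 0.44 on the log2 scale (adjusted p = 0.0292 over 53805 tested transcripts, of which 3.99% passed in either direction). YAP1 counts were spread over 8 transcripts, none of which passed. The most abundant, ENST00000615667.4, held 28.1% to 31.9% of YAP1 counts in control and 19.9% to 26.2% in TTC3 shRNA libraries, at 35.5 ± 2.97 and 35.8 ± 8.11 CPM. Reads are shared among transcripts of one gene, which makes single estimates uncertain. The call of the WWTR1 transcript was lost without any control library and without TTC3 shRNA replicate 2 or 3.

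TEAD factors bind the DNA. TEAD1 (ENSG00000187079.20, chr11:12674591-12944483, plus strand) was at 289, 287 and 281 CPM in control libraries and at 320.1, 249 and 239 CPM with the TTC3 shRNA. Replicate 1 of the TTC3 shRNA group was above every control library, and replicates 2 and 3 were below every one. The log2 fold change was -0.085 ± 0.11 (95% interval -0.35 to 0.18, adjusted p = 0.601). Without TTC3 shRNA replicate 1 it was -0.21 (adjusted p = 0.00125), so the value rests on that library. TEAD4 (ENSG00000197905.10, chr12:2959330-3040673, plus strand) was at 15.1, 15.8 and 15.6 CPM in control and at 17.6, 17.2 and 17.1 CPM in TTC3 shRNA libraries. The groups did not overlap, yet the difference of 0.16 ± 0.07 on the log2 scale (95% interval 0.0038 to 0.32) missed the threshold (adjusted p = 0.104). It passed without TTC3 shRNA replicate 1 (0.17, adjusted p = 0.0236) and in DESeq2 (0.17, adjusted p = 0.0469), and it was 0.034 with library totals alone and 0.00046 where a trend with transcript length was removed (adjusted p = 0.997).

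The ratio of TEAD4 to TEAD1 counts was 0.0523, 0.0549 and 0.0555 in control and 0.0550, 0.0692 and 0.0716 in TTC3 shRNA libraries. The groups overlapped, and the mean log2 ratio differed by 0.26 (exact two-sided permutation test, p = 0.2, adjusted 0.3, n = 3 a group). The main TEAD1 transcript, ENST00000527636.7, held 95.2% to 97.1% of TEAD1 counts in all libraries.

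The other TEAD genes are paralogs, with the same type of DNA-binding domain. TEAD2 was at 68.3, 69.4 and 69.1 CPM in control and at 80.6, 101 and 96.9 CPM in TTC3 shRNA libraries. It rose by 0.43 ± 0.09 on the log2 scale (adjusted p = 0.0116), and lost its call without control replicate 1, 2 or 3 (adjusted p = 0.0564, 0.0526 and 0.0541). TEAD3 was at 15.2 ± 0.145 CPM in control and 15.04 ± 1.72 CPM in TTC3 shRNA libraries (log2 fold change -0.013, adjusted p = 0.933). Per kilobase, TEAD2 at 30.8 CPM stood between TEAD1 and TEAD4 in control cells, and TEAD3 at 5.09 CPM was the lowest of the family.

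CCN1 and CCN2 encode secreted matricellular proteins of the CCN family (also called CYR61 and CTGF). CCN1 (ENSG00000142871.18, chr1:85580761-85583962, plus strand) was at 195, 201 and 202 CPM in control libraries and at 46.1, 49.1 and 50.5 CPM with the TTC3 shRNA. The lowest control value was far above the highest TTC3 shRNA value, and the 3 libraries of each group were close to one another. CCN1 fell by 2.04 ± 0.06 on the log2 scale (adjusted p = 6.79e-06), to 24.4% of control. In bulk RNA, fewer cells that express a gene and less of its RNA per cell cannot be told apart. CCN2 (ENSG00000118523.6, chr6:131948176-131951373, minus strand) was at 96.99, 97.8 and 98.2 CPM in control and at 60.2, 71.8 and 75.0 CPM in TTC3 shRNA libraries. The groups did not overlap, with TTC3 shRNA replicate 1 the lowest. CCN2 fell by 0.50 ± 0.09 on the log2 scale (adjusted p = 0.00592), to 70.7% of control.

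The ratio of CCN2 to CCN1 counts was 0.497, 0.486 and 0.486 with the control shRNA and 1.31, 1.46 and 1.48 with the TTC3 shRNA. CCN1 was the more abundant of the pair in every control library and CCN2 in every TTC3 shRNA library. The mean log2 ratio differed by 1.53 (exact two-sided permutation test, p = 0.1, the smallest that 3 against 3 libraries can give, adjusted 0.3). Each gene had 1 transcript in the table. CCN1's fell by 2.06 on the log2 scale (adjusted p = 0.00161 over all transcripts) and CCN2's by 0.53 (adjusted p = 0.0496). In that test 2.6% of transcripts fell. The CCN2 transcript's call was lost without any control library and without TTC3 shRNA replicate 2 or 3.

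The remaining CCN paralogs did not pass the test. CCN3 was at 44.5 ± 0.865 CPM in control and 42.4 ± 4.28 CPM in TTC3 shRNA libraries. CCN4 was at 0.274 CPM or less in every library. CCN5 was at 0.206, 0.217 and 0.295 CPM in control and at 0, 0.0292 and 0.0905 CPM in TTC3 shRNA libraries (log2 fold change -2.57 ± 0.86, adjusted p = 0.0559). It passed without TTC3 shRNA replicate 1 (-1.96, adjusted p = 0.0178) or replicate 3 (-4.00, adjusted p = 0.0243), and in 4 other alternatives, with a lowest adjusted p of 0.0146 in DESeq2. CCN6 had 9 counts in 1 control library and 0 elsewhere, and was not tested.

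ANKRD1 (ENSG00000148677.7, chr10:90912096-90921276, minus strand) encodes a nuclear ankyrin-repeat protein. It was the least abundant of the 10 genes, with 355, 451 and 368 counts with the control shRNA and 136, 157 and 104 with the TTC3 shRNA. In CPM these were 2.22, 2.79 and 2.46 against 0.902, 1.15 and 0.724, and the groups did not overlap. ANKRD1 fell by 1.43 ± 0.20 on the log2 scale (adjusted p = 0.00240), to 37.1% of control. Its SE was the largest of the 10 genes. Its single transcript fell short of the threshold among all transcripts (log2 fold change -1.45, adjusted p = 0.0504). The muscle ankyrin-repeat paralogs ANKRD2, at 0.184 ± 0.0553 and 0.181 ± 0.0753 CPM, and ANKRD23, at 4.49 ± 0.520 and 4.89 ± 1.60 CPM in control and TTC3 shRNA libraries, did not pass.

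AMOTL2 (ENSG00000114019.15, chr3:134355874-134375479, minus strand) encodes a motin, a junctional protein that binds YAP and is itself a known YAP target. It was at 105, 108 and 106 CPM in control and at 50.8, 59.3 and 62.1 CPM in TTC3 shRNA libraries. The groups did not overlap. AMOTL2 fell by 0.89 ± 0.08 on the log2 scale (adjusted p = 0.000463), to 54.0% of control. Its most abundant transcript, ENST00000249883.10, held 54% to 71% of the gene's counts in control and 58.6% to 77.4% in TTC3 shRNA libraries, and its log2 fold change was -0.83 (adjusted p = 0.0597). The next, ENST00000513145.1, had a log2 fold change of -1.23 with a wide spread (adjusted p = 0.184).

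AMOT, the founding member of the motin family and a paralog of AMOTL2, was at 7.46, 7.81 and 7.74 CPM in control and at 25.6, 22.1 and 20.02 CPM in TTC3 shRNA libraries. All TTC3 shRNA values were above all control values. AMOT rose by 1.56 ± 0.11 on the log2 scale (adjusted p = 0.000109), to 294% of control. AMOTL1 was at 77.1 ± 0.634 CPM in control and 81.3 ± 6.27 CPM in TTC3 shRNA libraries (log2 fold change 0.077, adjusted p = 0.442). AMOTL1 passed where a trend with transcript length was removed (0.22, adjusted p = 0.0157). Per kilobase, in control cells AMOTL2 was at 27.1, AMOTL1 at 8.62 and AMOT at 1.10 CPM per kilobase, and after TTC3 shRNA at 14.6, 9.10 and 3.25.

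LATS2 and AJUBA act on the kinase step. LATS2 (ENSG00000150457.9, chr13:20973032-21061547, minus strand), a kinase that phosphorylates YAP and a known YAP target, was at 29.2, 31.7 and 31.2 CPM in control and at 23.2, 27.7 and 27.7 CPM in TTC3 shRNA libraries. The groups did not overlap, yet the log2 fold change of -0.23 ± 0.09 (95% interval -0.44 to -0.018) missed the threshold (adjusted p = 0.0880). With library totals alone it passed (-0.36, adjusted p = 0.0121), as it did when TTC3 shRNA replicate 1 was left out (-0.13, adjusted p = 0.0450). Its paralog LATS1 was at 44.6, 45.8 and 45.1 CPM in control and at 50.1, 39.1 and 37.4 CPM in TTC3 shRNA libraries (log2 fold change -0.10, adjusted p = 0.544). As for TEAD1, replicate 1 lay above the controls and replicates 2 and 3 below, and the value without replicate 1 was -0.22 (adjusted p = 0.00103).

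AJUBA (ENSG00000129474.17, chr14:22971174-22982642, minus strand) encodes a LIM-domain protein that binds LATS kinases. It was at 94.1, 94.1 and 97.1 CPM in control and at 88.2, 120.2 and 128 CPM in TTC3 shRNA libraries. Here replicate 1 was below every control library, and replicates 2 and 3 were above. The log2 fold change was 0.24 ± 0.13 (95% interval -0.077 to 0.55, adjusted p = 0.211), and 0.40 without TTC3 shRNA replicate 1 (adjusted p = 5.19e-05). Of its paralogs, LIMD1 was at 179.6, 184 and 181 CPM in control and at 193, 212 and 223 CPM in TTC3 shRNA libraries (0.20, adjusted p = 0.0640, and 0.27 with adjusted p = 0.000386 without replicate 1). LIMD1 also passed in DESeq2 (adjusted p = 0.0274), among protein-coding genes alone (adjusted p = 0.0471) and with the length trend removed (adjusted p = 0.0416). WTIP was at 2.92 ± 0.190 and 2.13 ± 0.459 CPM (log2 fold change -0.45, adjusted p = 0.0997), and passed with library totals alone (-0.59, adjusted p = 0.0354).

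**Figure D2:**
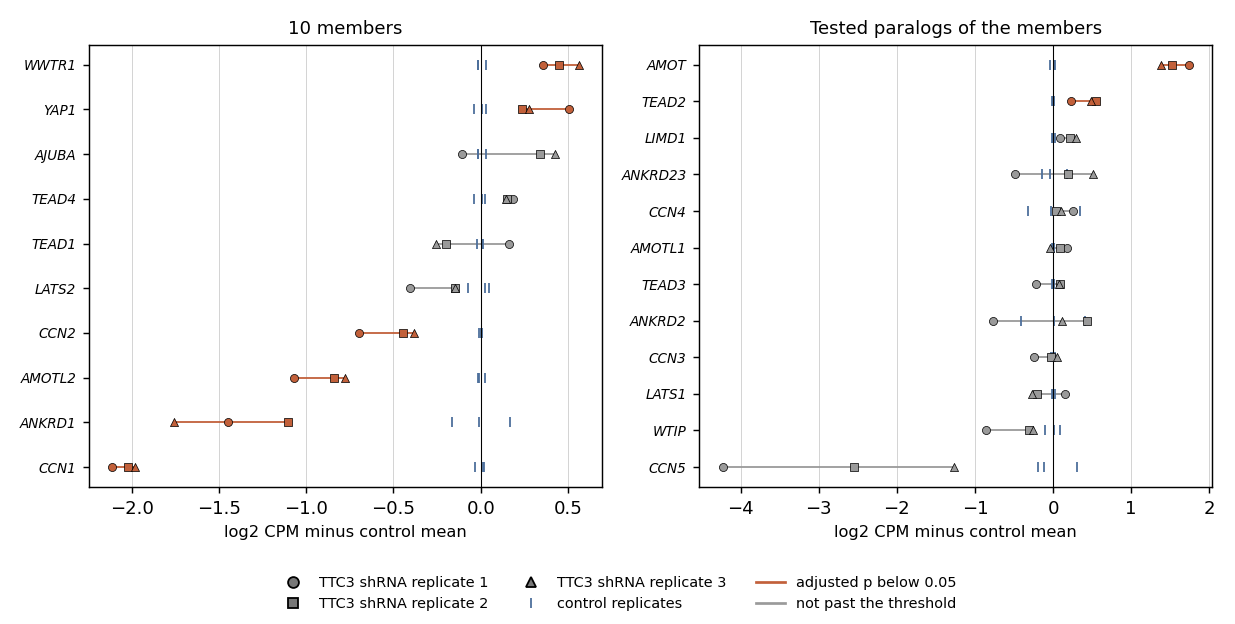
Log2 CPM of each TTC3 shRNA library minus the control mean for the 10 genes (left) and their 12 tested paralogs (right); ticks mark the control libraries, and colour marks an adjusted p below 0.05. CCN1, ANKRD1, AMOTL2 and CCN2 lie left of 0 and AMOT far right, while TEAD1, LATS1 and AJUBA have replicate 1 on the other side of 0 from replicates 2 and 3.

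Across the 13 paralogs listed, 12 were tested. TEAD2 and AMOT rose (16.7%), none fell, and 10 did not pass, beside 15.7% higher and 17.8% lower over all tested genes. The median log2 fold change was 0.032. Differences between a gene and its paralog were not tested. Reads from near-identical stretches of paralogs, or from overlapping genes, may have been divided between them, and the way this was done is not stated. Overlapping genes of the 10 had few counts: the highest were WWTR1-IT1, at a mean of 234 counts in control and 381 in TTC3 shRNA libraries, and a same-strand gene at AJUBA (ENSG00000259132), at 351 and 349.

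TEAD factors recognise the sequence GGAATG, or CATTCC on the other strand. The 250 bases before the start of each gene, from the RefSeq promoter table on GRCh38.p14, were searched for it on both strands. Of 35116 windows in that table, 11.9% held at least 1 match, 0.94% at least 2 and 0.0826% at least 3. Of the 10 genes, 7 had an entry, and 5 of these 7 held a match (CCN2, ANKRD1, AMOTL2, YAP1 and AJUBA), against 14.3% of all 27305 symbols with an entry. A gene with more than 1 start counted if any of them held a match. WWTR1 and LATS2 had none in this window, and TEAD1, TEAD4 and CCN1 have no entry. A match is a description of letters and not evidence of binding, and no match says only that these letters are not in this window.

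The CCN2 promoter is shown because it held 3 matches, at 169, 104 and 95 bases before its start. The others show the surroundings of a single match each, in the direction of the gene. Capitals mark GGAATG or CATTCC.
CCN2, chr6:131951393-131951572, minus strand: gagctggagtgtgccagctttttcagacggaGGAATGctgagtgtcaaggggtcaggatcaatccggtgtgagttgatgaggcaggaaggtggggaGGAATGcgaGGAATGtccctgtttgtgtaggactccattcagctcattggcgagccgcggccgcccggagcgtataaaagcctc
ANKRD1, chr10:90921290-90921319, minus strand: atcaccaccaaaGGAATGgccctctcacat
ANKRD1, chr10:90921198-90921227, minus strand: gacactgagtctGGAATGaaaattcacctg
AMOTL2, chr3:134374499-134374528, minus strand: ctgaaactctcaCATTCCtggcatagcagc
YAP1, chr11:102110273-102110302, plus strand: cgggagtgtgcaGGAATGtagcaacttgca
AJUBA, chr14:22976884-22976913, minus strand: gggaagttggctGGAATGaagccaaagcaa

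The 3 genes with an entry that fell (CCN2, ANKRD1 and AMOTL2) each held a match, as did YAP1, which rose, and AJUBA, which did not pass. The log2 fold changes were -0.50 for CCN2 with 3 matches, -1.43 for ANKRD1 with 2 and -0.89 for AMOTL2 with 1, and differences between them were not tested. ANKRD1 also held the motif TGANTCA of AP-1 factors, which was present in 6.57% of all windows. The start of ANKRD1 in RefSeq lies within its transcript in GENCODE 29, so the position of its matches depends on the annotation. The AMOTL2 match lies within its most abundant transcript in GENCODE 29. AMOTL2 and AJUBA have 2 RefSeq starts each, and the match lies before only 1 of them. For AJUBA the start without a match is the one nearer the start of the transcript with 98.2% to 99.2% of its counts.

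**Figure D3:**
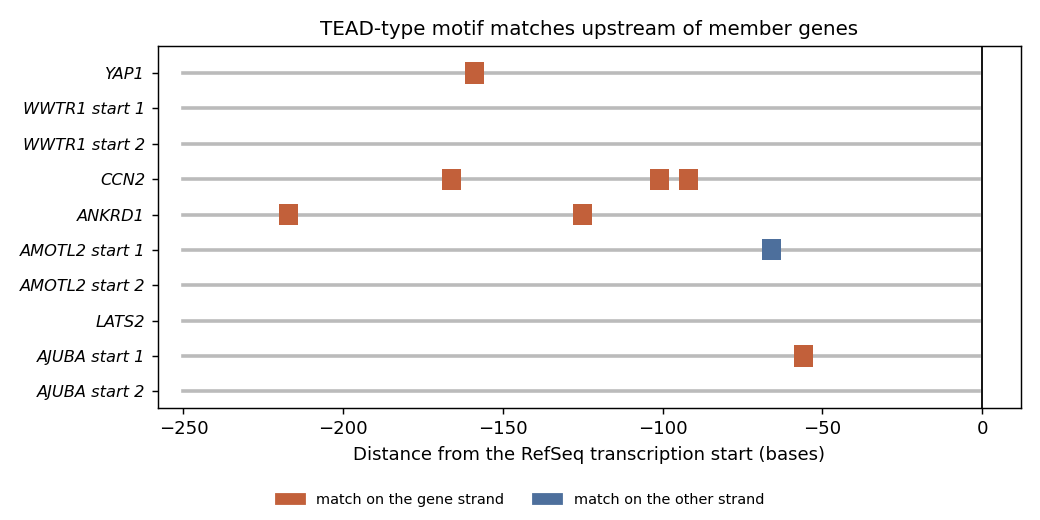
Matches to the TEAD motif in the 250 bases before each annotated RefSeq start of the genes with an entry (grey lines; x axis, bases from the start; a gene with 2 starts has 2 lines). Colour gives the strand of the match; CCN2 has 3 matches, ANKRD1 2, and AMOTL2, YAP1 and AJUBA 1 each.

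The kinase cascade and its upstream regulators were read from a list of 37 genes, of which 35 were tested. Of these, 7 rose (20%), 6 fell (17.1%) and 22 did not pass, beside 15.7% higher and 17.8% lower over all genes, and the median log2 fold change was 0.060. MAP4K4, a kinase that can phosphorylate LATS kinases, was at 429.5, 422 and 422 CPM in control and at 1065, 1003 and 930.1 CPM in TTC3 shRNA libraries. It rose by 1.24 ± 0.07 on the log2 scale (adjusted p = 5.28e-05). STK25, a kinase of the STRIPAK complex, rose from 72.6 ± 3.09 to 139 ± 15.4 CPM (0.93 ± 0.09, adjusted p = 0.000543). Both lie on chromosome 2, where 42.3% of tested protein-coding genes rose against 20.9% over all chromosomes. Of the protein-coding genes within 5 megabases of STK25, 28 of 44 rose, with a median log2 fold change of 0.59, and near MAP4K4 23 of 55, with a median of 0.21. The part of this regional shift in their rises was not tested.

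The protocadherin FAT4 and its ligand DCHS1 moved in opposite directions. FAT4 was at 9.17, 8.04 and 8.77 CPM in control and at 17.8, 15.02 and 15.2 CPM in TTC3 shRNA libraries (rose by 0.89 ± 0.10, adjusted p = 0.00106). DCHS1 was at 3.14, 3.35 and 3.35 CPM in control and at 0.544, 0.890 and 0.703 CPM in TTC3 shRNA libraries (fell by 2.20 ± 0.20, adjusted p = 0.000359). In neither gene did the groups overlap. FRMD6, a FERM-domain regulator, fell from 392 ± 7.83 to 236 ± 29.5 CPM (log2 fold change -0.73 ± 0.10, adjusted p = 0.00173). SAV1, the scaffold of the MST kinases, fell from 59.9 ± 1.93 to 40.4 ± 3.73 CPM (-0.57 ± 0.08, adjusted p = 0.00242). FRMD6 and SAV1 lie close together on chromosome 14. Of the protein-coding genes within 5 megabases of FRMD6, 16 of 52 fell and 5 rose, with a median log2 fold change of -0.108. Near SAV1 14 of 50 fell and 5 rose (median -0.1). The part of this region in the falls of FRMD6 and SAV1 was not tested.

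The other core genes, chosen for their role and with their values known, did not pass. The MST kinases STK3 and STK4 had log2 fold changes of -0.29 (adjusted p = 0.0696) and -0.24 (adjusted p = 0.0886), the LATS cofactors MOB1A and MOB1B of 0.35 (adjusted p = 0.0507) and 0.15 (adjusted p = 0.359), and NF2 of 0.17 (adjusted p = 0.131). VGLL1 and VGLL2, which compete for TEAD, had 0 counts in every library and were not tested. Without TTC3 shRNA replicate 1 the list had 12 genes called higher and 15 lower, and with library totals alone 10 lower.

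The 27 other genes described as YAP and TEAD targets, 25 of them tested, moved both ways. Of these, 9 rose (36%), 11 fell (44%) and 5 did not pass, and the median log2 fold change was -0.073. By at least 2-fold, 4 of the 25 rose and 6 fell, beside 711 and 2080 of all 24325 tested genes. All tested genes had 15.7% higher and 17.8% lower, and tested protein-coding genes 20.9% and 21.3%, so the shares of the list were above both. The list was chosen with earlier results of these data known, so its shares are a description alone.

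TGM2, a protein-crosslinking transglutaminase, rose from 95.02 ± 1.67 to 332.7 ± 26.9 CPM (1.81 ± 0.08, adjusted p = 1.61e-05). CCDC80, an extracellular matrix protein, rose from 8.50 ± 0.518 to 29.4 ± 0.621 CPM (1.79 ± 0.08, adjusted p = 1.57e-05).

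EDN1, the precursor of the vasoactive peptide endothelin 1, was at 7.48, 7.52 and 7.55 CPM in control and at 0.677, 0.584 and 0.710 CPM in TTC3 shRNA libraries. It fell by 3.51 ± 0.13 on the log2 scale (adjusted p = 1.03e-05), the largest fall of the list. GADD45B, a stress-inducible gene, fell from 64.9 ± 0.462 to 12.1 ± 1.58 CPM (-2.43 ± 0.10, adjusted p = 1.61e-05). THBS1, the matrix glycoprotein thrombospondin 1, fell from 285 ± 3.17 to 69.2 ± 4.66 CPM (-2.04 ± 0.07, adjusted p = 8.39e-06). THBS1 lies on chromosome 15, where 55.8% of tested protein-coding genes fell against 21.3% over all chromosomes. Of its neighbours within 5 megabases, 30 of 99 fell, with a median log2 fold change of -0.12. The part of the chromosome in the THBS1 fall was not tested. None of the 10 genes lies on chromosome 2 or 15. YAP1 and TEAD1 lie on chromosome 11, where 30.5% of tested protein-coding genes rose and 15.9% fell. Of the protein-coding genes within 5 megabases of CCN1, 10 of 39 fell and 1 rose, with a median log2 fold change of -0.27. Near ANKRD1 18 of 57 fell and 4 rose (median -0.112). Near CCN2 10 of 39 fell and 4 rose (median -0.0875), and near AMOTL2 6 of 42 fell and 7 rose (median -0.0712). Near YAP1 2 of 20 rose and 7 fell (median -0.121), and near WWTR1 7 of 29 rose and 7 fell (median 0.101). The part of these regions in the falls of the 4 genes and in the rises of YAP1 and WWTR1 was not tested.

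**Figure D4:**
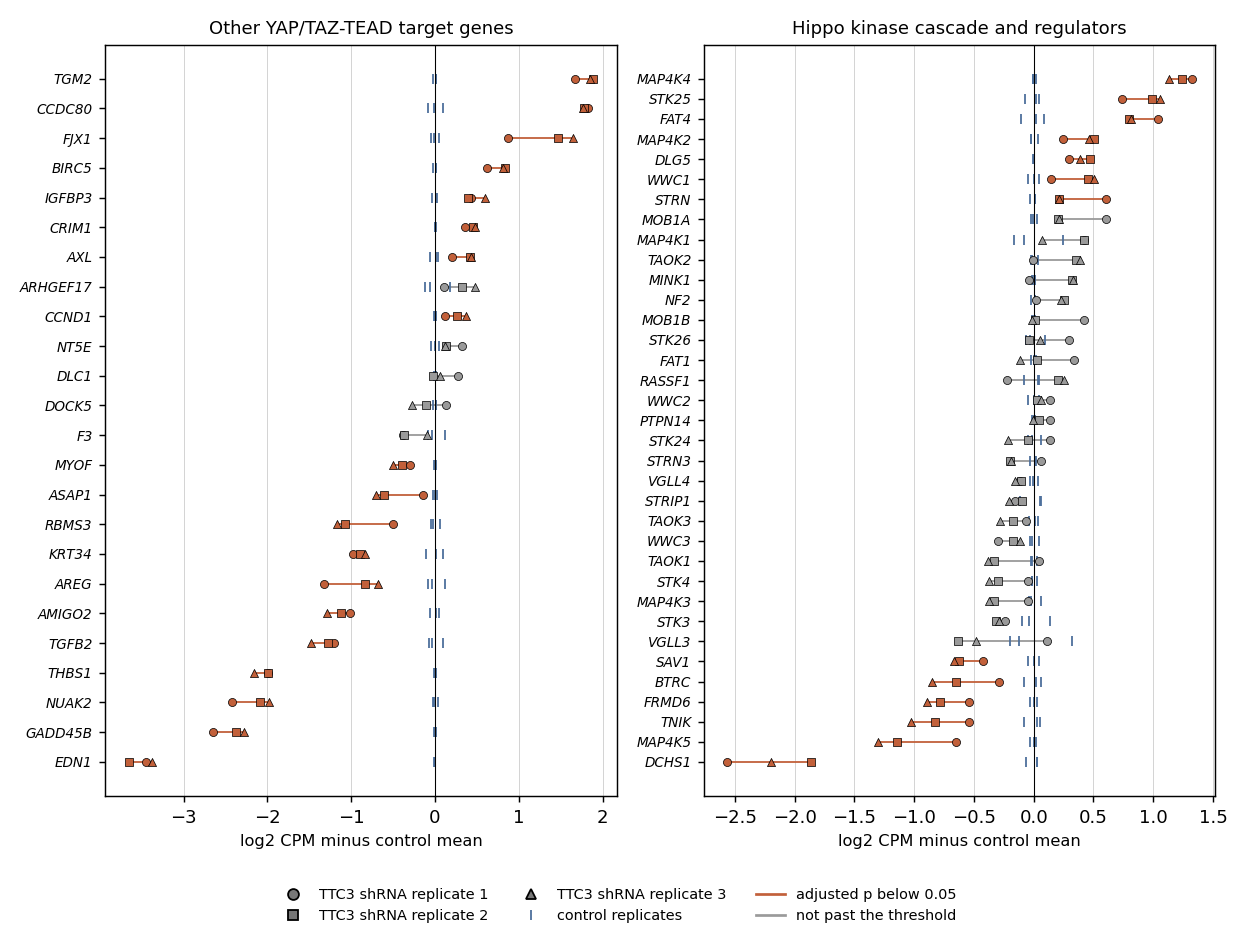
Log2 CPM of each TTC3 shRNA library minus the control mean for other target genes (left) and the 35 tested Hippo pathway genes (right), in order of the fitted fold change; ticks mark control libraries, and colour marks an adjusted p below 0.05. Targets spread from EDN1, near -3.51, to TGM2, near 1.81, and most Hippo genes lie near 0.

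The TEAD motif was found upstream of 6 of 17 other targets with an entry (35.3%) and of 5 of 31 Hippo genes (16.1%). Among the targets, 4 of 10 with an entry that fell and 1 of 4 that rose held a match. These counts are too small for more than a description.

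The genes most like the 3 largest changes among the 10 genes were found by the root mean square difference of log2 CPM, centred on the control mean, over the 6 libraries. This measure is small for any gene with a fold change of the same size and low spread. CCN1 was closest to ZFP36 (0.0393), an RNA-binding protein that promotes messenger RNA decay, then to STC2 (0.0570), a secreted stanniocalcin, and ARID3B (0.0767), a DNA-binding protein on chromosome 15. ZFP36 was at 13.4, 13.7 and 14.3 CPM in control and at 3.13, 3.42 and 3.70 CPM in TTC3 shRNA libraries. ANKRD1 was closest to SLC37A1 (0.151), FAM131B (0.181) and the ephrin ligand EFNA1 (0.183). AMOTL2 was closest to RNF207 (0.0296), the peptide transporter TAP1 (0.0348) and NDRG1 (0.0510). RNF207 was at 30.8, 33.1 and 32.2 CPM in control and at 14.8, 17.6 and 18.4 CPM in TTC3 shRNA libraries. In the TTC3 shRNA group both RNF207 and AMOTL2 were lowest in replicate 1 and highest in replicate 3. Nothing about shared function or control follows from this measure.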

How the data were processed

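Total RNA depleted of ribosomal RNA was made into directional libraries, per the labels' protocols. Trim Galore, STAR, StringTie and hg38 are named in the submitters' processing notes. Their versions, the annotation release and any use of strand in counting are not stated there. The authors deposited estimated counts per gene and per transcript, which were whole numbers and needed no rounding. Groups and replicate numbers came from the titles. The test was edgeR's (version 4.0.16, R 4.3.3), with filterByExpr (10 counts in a group, 15 in total), TMM factors of 0.9236 to 1.051, and glmQLFit and glmQLFTest over the 6 libraries without a block, at a Benjamini-Hochberg adjusted p below 0.05. SE is the log2 fold change divided by the square root of F, and intervals are 95%. The procedure was also run on simulated libraries in which each gene varied independently. These did not include the departure of TTC3 shRNA replicate 1, so they cannot show how the test behaves with it. At 143246356 to 155526861 counts per library, precision is set by the spread between libraries for abundant genes and also by counting error for rare genes such as ANKRD1. Positions and transcript lengths came from GENCODE 29 (GRCh38, the same assembly as hg38), which held 16 of the 28 transcripts of the 10 genes with the same version, and promoter sequences from RefSeq on GRCh38.p14.

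The 10 genes and all lists were chosen with earlier results of these data known. By rule, named genes were the 10, TTC3, their tested paralogs, cell type markers, up to 6 genes each of the Hippo and target lists by adjusted p with at least 1 CPM, and 3 genes most like each of the 3 largest changes (protein-coding, at least 5 CPM). Some genes that the rule gives are left out of the text and the plots. Chromosome and neighbour counts were chosen after seeing the data. Alternatives were DESeq2 (1.42.0), limma-voom (limma 3.58.1), DESeq2 size factors in edgeR, library totals, TMM without mitochondrial genes and the 20 most abundant, no filter, at least 50 counts in 3 libraries, an adjusted p of 0.01, protein-coding genes alone, removal of a transcript length trend (lowess), a replicate block and each library left out in turn.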

Additional observations from a re-analysis of the deposited data

How the results depend on the processing

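The falls of CCN1, CCN2, ANKRD1 and AMOTL2 and the rise of WWTR1 kept their call and direction in all 17 alternatives run. Scaling by library totals moved the median of all genes by -0.128 on the log2 scale. It gave 2518 genes called higher, which was 32% of calls in place of 46.9%, 1 of the 10 genes higher, 2 paralogs and 10 Hippo genes lower, and log2 fold changes of 0.22 for YAP1 (adjusted p = 0.154) and -0.36 for LATS2 (adjusted p = 0.0121). With DESeq2, TEAD4 was at 0.17 (adjusted p = 0.0469), 1 paralog fell, and 2 transcripts of the 10 genes rose and 4 fell. With limma-voom 1 paralog fell. Removal of the length trend gave 4 paralogs higher and 1 lower, and 12 Hippo genes higher. It called 8308 genes in all, 40.9% of them higher. It moved the median of all genes by -0.0998 and that of the target list from -0.073 to 0.075. At an adjusted p of 0.01, 1688 genes were higher and 2394 lower, 1 of the 10 genes (WWTR1) and 1 paralog were higher, and YAP1, at a log2 fold change of 0.34, was no longer called. At least 50 counts gave 4 transcripts lower. The cause of these changes was not tested.

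With each library left out in turn, all genes called ranged from 1835 to 6674 higher and from 2711 to 7065 lower, with 13739 in all without TTC3 shRNA replicate 1 and 4546, 4632 and 4633 without control replicate 1, 2 and 3. The 10 genes ranged from 1 to 4 higher and 4 to 6 lower, paralogs from 1 to 3 and 0 to 2, Hippo genes from 5 to 12 and 5 to 15, other targets from 7 to 11 and 10 to 12, and transcripts of the 10 genes from 0 to 2 and 1 to 3. Log2 fold changes ranged from 0.27 to 0.40 for YAP1, -0.21 to 0.0034 for TEAD1, 0.14 to 0.18 for TEAD4, -0.27 to -0.13 for LATS2 and 0.14 to 0.40 for AJUBA. Differences in log2 ratio ranged from 1.496 to 1.59 for CCN2 to CCN1, 0.19 to 0.38 for TEAD4 to TEAD1 and 0.035 to 0.25 for WWTR1 to YAP1. Libraries with the same replicate number showed little shared deviation (correlations 0.0451, 0.0395 and -0.0058). With 3 libraries a group, this cannot settle whether they were prepared in pairs. With the replicate block 6929 genes were called in place of 8165, the same 6 of the 10 genes were called, and 0 of their transcripts rose and 0 fell. Not every library correlated best with its own number.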
